A study of Ovis aries and Mus musculus with 20 samples.

Results

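The 10 genes described here are imprinted genes of the mouse with roles in growth, namely *Igf2*, *H19*, *Cdkn1c*, *Dlk1*, *Meg3*, *Mest*, *Peg3*, *Grb10*, *Plagl1* and *Snrpn*. They were located in the GRCm39 assembly by symbol, and all 10 were found among 72958 annotated genes on the 19 autosomes. The rule that names them uses no measured value. They were read in *in situ* Hi-C maps of fat under the skin of the groin (inguinal white adipose tissue, iWAT) from 32-week-old adult female Kunming mice, an outbred stock. In this assay, cut ends of DNA are joined inside nuclei, and each joined pair that is sequenced counts as a contact between 2 loci. Each of the 2 libraries, called pool 1 and pool 2, came from a pool of mice, and nuclei were taken from the floating layer that contains adipocytes. The series also holds libraries of sheep visceral fat, 9 of Hi-C and 9 of RNA-seq, which do not measure these mouse genes and were not used here.

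An imprinted gene is expressed mainly from the allele of 1 parent. The choice is set by DNA methylation that egg or sperm lays down at an imprinting control region, and it is kept after fertilization by factors such as ZFP57, which binds methylated copies. At some loci the unmethylated copy is bound by CTCF, which can block enhancers and hold chromatin loops. Imprinted genes lie in clusters, and many act on growth. Those expressed from the paternal allele often promote growth, as *Igf2* does, and those expressed from the maternal allele often restrain it, as *Cdkn1c* and *Grb10* do. In fat, *Dlk1* marks preadipocytes and restrains their differentiation, and *Mest* is known in mice as a gene that follows the enlargement of adipocytes. Of the 10 members, 4 are known to be expressed from the maternal allele in most tissues (*H19*, *Cdkn1c*, *Meg3* and *Grb10*) and 6 from the paternal allele.

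Matches to the core that CTCF binds at the *H19* and *Igf2* cluster are shown first, because this locus is the best known case of an imprint that acts through contacts. The CTCF core was searched as CCGCGNGGNGGCAG on both strands, where N is any base. Only 57 matches were found on the autosomes of the reference genome, and 3 of them lay within 2 kb upstream of the annotated start of *H19*, all on its strand. No other match to this form lay in the windows of the 8 imprinted domains. The form is that of the *H19* locus, so its presence there was given in advance. Sites of other forms that CTCF can bind were not searched. They are printed 5′ to 3′ from GRCm39, with the match in capitals and 8 bases to each side.
H19 site 1, chr7:142134046-142134059, minus strand: agacgatgCCGCGTGGTGGCAGtacaatac
H19 site 2, chr7:142134501-142134514, minus strand: ggatgctaCCGCGCGGTGGCAGcatactcc
H19 site 3, chr7:142135771-142135784, minus strand: gggagttgCCGCGTGGTGGCAGcaaaatcg

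The second set shows the letters bound by ZFP57, TGCCGC, searched on both strands in the 300 bases from 250 before to 50 after a gene start. At the start of the gene record, the promoters of *H19* and *Meg3* held a match, which makes 2 of 10 members, while 6.98% of 72955 promoters did. At the start of the canonical transcript, which differs for 7 members, 6 of 10 held one, against 7.57% of all such windows and 20.2% of the 19510 windows with at least 10 CpG. This search at canonical starts was added after seeing the data. The letters contain a CpG, and the members had 7 to 45 CpG in these windows. *Igf2*, with 7, and *Peg3*, with 9, fell below the limit of 10, so the 20.2% is not a match for every member. Examples from members in the A compartment (*H19*, *Mest* and *Plagl1*) and in the B compartment (*Grb10* and *Snrpn*) are printed with the match in capitals and 12 bases to each side.
H19, chr7:142134056-142134061, minus strand: atggacagacgaTGCCGCgtggtggcagta
Mest, chr6:30737982-30737987, minus strand: acccgcccatccTGCCGCagcgcccctcct
Plagl1, chr10:12966284-12966289, minus strand: aggtctcctaggTGCCGCgttggcgcaggt
Grb10, chr11:11987391-11987396, plus strand: cccttcccttccTGCCGCctccccgcaccc
Snrpn, chr7:59654944-59654949, plus strand: tgcgcacattttTGCCGCaatgcaggggtc
The *H19* match overlaps CTCF site 1. The *Snrpn* match also lies in the promoter of *Snurf*, the upstream reading frame of the same transcript. The YY1 core, GCCATNTT, was in none of the 10 members' promoters and in 6.25% of all promoters. The CTCF core, in the *H19* form searched here, was in the promoter of *H19* alone among the members and in 9 of 72955. These matches describe the reference sequence and say nothing of binding in these mice.

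The measure is the A-B index. For each 20-kb bin it is the median observed over expected contact with the A regions of the chromosome minus that with its B regions, so values above 0 mark the A compartment, which is rich in active chromatin, and those below 0 the inactive B compartment. It has no unit and sums both parental alleles and all nuclei of the library, so neither allele can be read from it. Over all 123133 bins, pool 1 had an SD of 3.77 and pool 2 of 3.42, 47.4% and 45.7% of bins were above 0, and 96.4% had the same sign in both. The number of contacts behind a bin is not known from the files, and therefore no counting interval is given. Of the adipocyte marker genes, 9 of 10 had their start in A in both pools (median 4.15), with means from 0.06 for *Car3*, which changed sign between pools, to 7.96 for *Lipe*. The counts were 4 of 5 for muscle, progenitor and endothelial markers (medians 4.30, 3.55 and 2.59), 3 of 5 for lymphocyte, macrophage and liver markers (medians 3.94, 3.14 and 0.35), 4 of 6 for mammary epithelial markers (median 2.90) and 2 of 5 for neuron markers (median -1.78). The adipocyte median was thus not the highest of these lists. The index gives no expression, so these lists describe compartments and not which cells were present. With 1 tissue and 2 pools there are no groups to compare, so no test was made, and each value stands beside its spread between pools and beside all annotated genes.

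The starts of 8 of the 10 members lay in A in both pools, and those of *Grb10* and *Snrpn* lay in B in both. Among all annotated genes, 64.9% of starts were in A in both pools, 31.7% were in B in both and 3.4% changed sign. Among protein-coding genes 75.6% were in A in both pools. The members' 80.0% is near these shares. Their median index was 1.43, below the 2.05 of all annotated genes and the 3.26 of protein-coding genes. Of the 10, 4 were above the median of all genes. These comparisons run across chromosomes, between which zero can shift. Of the maternally expressed members 3 of 4 were in A (median 2.73), and of the paternally expressed ones 5 of 6 were (median 1.43). By their means, 4 members lay at 3.98 to 4.92, 4 at 0.65 to 1.59 and 2 below 0.

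**Figure D1:**
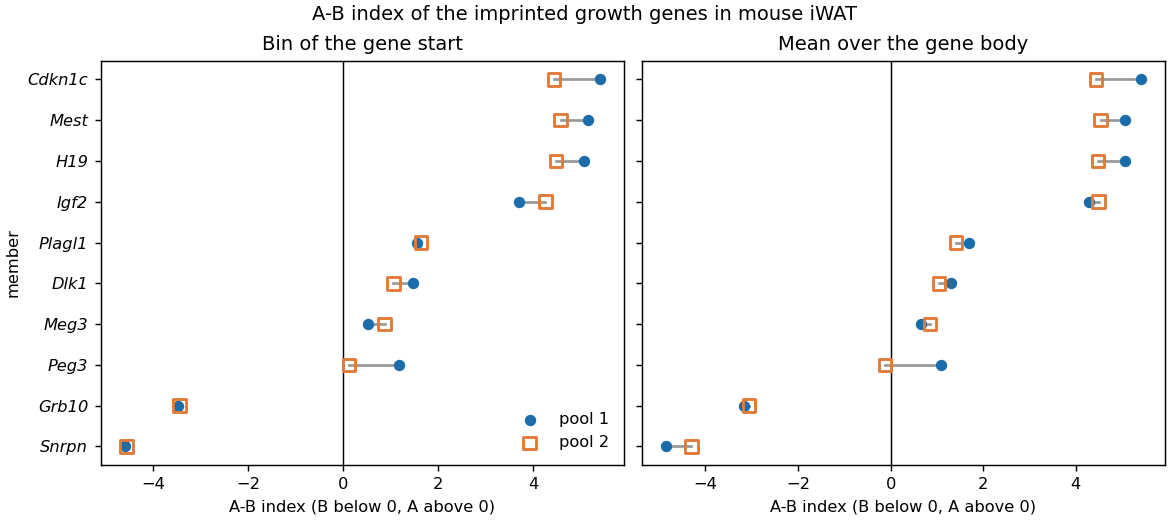
A-B index (no unit) of each member in pool 1 (filled circles) and pool 2 (open squares), at the bin of the gene start on the left and as the mean over the gene body on the right, ordered by the mean at the start. *Cdkn1c*, *Mest*, *H19* and *Igf2* sit between 3.70 and 5.40 at the start in both pools, *Grb10* and *Snrpn* sit there at -3.44 or lower, and the body of *Peg3* straddles 0.

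*Cdkn1c*, a cyclin-dependent kinase inhibitor that restrains growth, had the highest mean index of the members. Its start bin was at 5.40 in pool 1 and 4.43 in pool 2, a mean of 4.92 ± 0.69 (SD, n = 2 pools), above 86.5% of all gene starts. *Mest*, an alpha/beta hydrolase-fold protein, was at 5.16 and 4.58, a mean of 4.87 ± 0.41 (SD, n = 2). *H19*, a long noncoding RNA, was at 5.07 and 4.48, a mean of 4.77 ± 0.42 (SD, n = 2). The means of these 3 genes differed by less than the SD between pools of each, so they cannot be ordered. *Igf2*, the insulin-like growth factor of fetal life, was at 3.70 and 4.26, a mean of 3.98 ± 0.39 (SD, n = 2), above 74.4% of all gene starts. At this start it was lower than *H19* in both pools. At the start of its canonical transcript, in the bin beside, *Igf2* was at 4.85 and 4.72. There the order turned in pool 2 and in the mean, so *Igf2* and *H19* cannot be ordered either. Ranks within the chromosome were lower for the genes of chromosome 7. *Cdkn1c* was above 63.6% of the gene starts there, *H19* above 62.2% and *Igf2* above 56.7%. *H19* was above 85.0% of all gene starts. *Mest*, on chromosome 6, was above 88.8% of starts there and 86.0% of all.

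The next members lay near the border of the compartments. *Plagl1*, a zinc finger transcription factor that halts the cell cycle, was at 1.55 and 1.63, with a mean of 1.59 ± 0.06 (SD, n = 2). *Dlk1*, a transmembrane protein with EGF-like repeats, was at 1.46 and 1.06, with a mean of 1.26 ± 0.29 (SD, n = 2). *Meg3*, the long noncoding RNA next to it, was at 0.52 and 0.87, with a mean of 0.70 ± 0.25 (SD, n = 2), and lay below *Dlk1* in both pools. These were positive in both pools, and their percentiles among all gene starts were 45.7, 42.9 and 38.7. Among the gene starts of their own chromosomes they were 50.7, 50.8 and 47.3, near the middle. *Peg3*, a zinc finger protein of the paternal allele, was at 1.18 in pool 1 and 0.13 in pool 2, with a mean of 0.65 ± 0.75 (SD, n = 2). Its SD exceeded its mean, so its compartment is not settled by these pools. The order of *Dlk1*, *Meg3* and *Peg3* does not hold against the spread of *Peg3*.

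*Grb10* and *Snrpn* were far on the B side. *Grb10*, an adaptor that binds the insulin and IGF receptors and restrains their signal, was at -3.48 and -3.44, with a mean of -3.46 ± 0.03 (SD, n = 2), and 13.7% of gene starts were lower. *Snrpn*, which encodes a protein of the spliceosome and lies in the cluster that is lost in Prader-Willi syndrome in humans, was at -4.59 and -4.56, with a mean of -4.58 ± 0.03 (SD, n = 2), and 7.85% of gene starts were lower. At these starts their levels were apart by more than the SD between pools of either. The start of *Snurf*, at the imprinting control region of the cluster, was also in B, at -3.55 and -3.90. The same bin holds the start of the canonical transcript of *Snrpn*, so its mean there was -3.72 ± 0.24 (SD, n = 2). Read at that start, *Snrpn* was much closer to *Grb10*, though still lower in both pools.

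**Figure D2:**
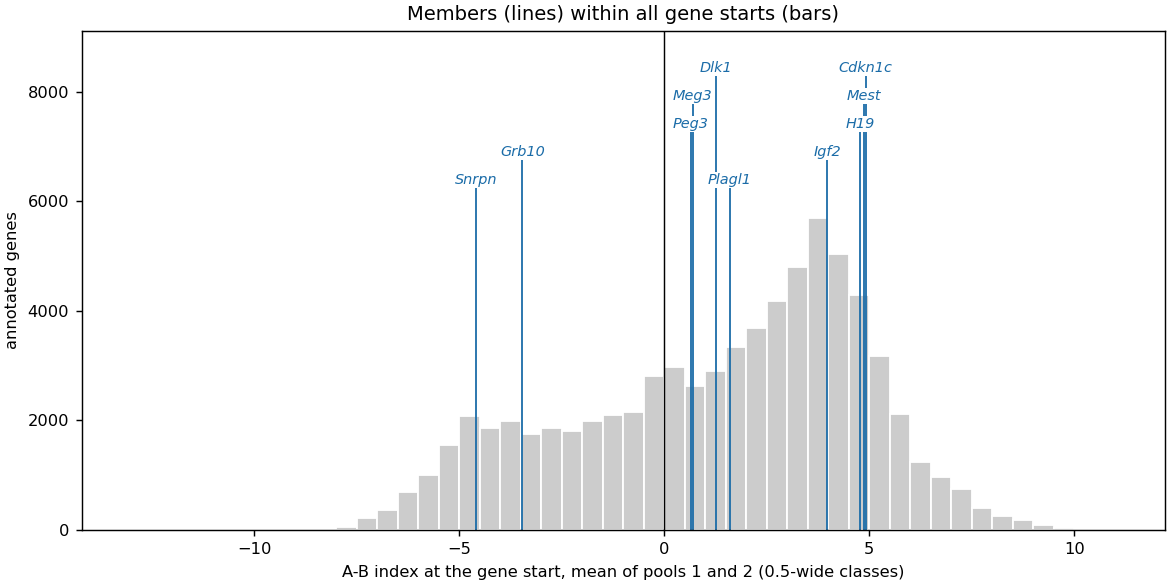
Number of annotated genes by the A-B index at their start, in classes 0.5 wide, as the mean of both pools (grey bars, 72958 genes), with each member as a line at its own mean. *Cdkn1c*, *Mest*, *H19* and *Igf2* stand at 3.98 to 4.92, *Peg3*, *Meg3*, *Dlk1* and *Plagl1* just above 0, and *Grb10* and *Snrpn* at -3.46 and -4.58.

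The pools moved the members by as much as they moved other genes. The absolute difference between pools had a median of 0.48 over the members and 0.48 over all annotated genes. It was largest for *Peg3* and *Cdkn1c*, at -1.06 and -0.97 (pool 2 minus pool 1), larger than that of 86.5% and 83.1% of genes. It was 0.04 for *Grb10* and for *Snrpn*, larger than that of only 5.74% and 5.39% of genes. The index was lower in pool 2 for 5 members and higher for 5.

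Over the gene body the picture was the same but for *Peg3*. The mean index of the body was above 0 in both pools for 7 members and below 0 in both for 2, while 64.7% of all annotated genes had a body mean in A in both pools. The *Peg3* body, in 2 bins of chr7:6706882-6733468, had a mean of 1.09 in pool 1 and -0.12 in pool 2. All 6 bins of *Grb10* (chr11:11880498-11988683) were in B in both pools, between -3.63 and -2.41 as pool means, highest at the 3′ end of the gene. All 11 bins of *Snrpn* (chr7:59630427-59820763) were in B as well, between -5.33 and -3.72, and the highest was the bin of the *Snurf* start. All 5 bins of *Plagl1* (chr10:12936248-13007438) were in A, between 1.26 and 1.93. The other members spanned 1 or 2 bins. Body means of *Dlk1* (chr12:109418749-109429262) were 1.31 and 1.05, those of *Meg3* (chr12:109506877-109538165) were 0.65 and 0.85, those of *Mest* (chr6:30723546-30752058) were 5.07 and 4.53, and those of *Igf2* (chr7:142204503-142220694) were 4.28 and 4.49. *H19* (chr7:142129262-142133957) and *Cdkn1c* (chr7:143012069-143014806) each lay in a single bin.

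Along the 8 imprinted domains with 500 kb to each side, 54.55% of 726 bins were above 0 in pool 1 and 53.3% in pool 2, against 47.4% and 45.7% of all bins. The shares in this paragraph count each bin by its sign, including 8 bins of the *Snrpn* domain at the level of undetermined bases, described below. All bins include 3200 made wholly of undetermined bases. The excess of A bins along the domains depended on the flanks. With no flank 42.13% of 375 bins were above 0 as the mean of both pools, below the share of all bins in each pool. The *Snrpn* domain, the longest at 3236 kb and mostly in B, weighs most in that share. The share without it was not computed. The domains differed strongly. Every bin was above 0 in both pools in the *H19*-*Igf2* domain (71 bins), the *Kcnq1* domain of *Cdkn1c* (90 bins), the *Mest* domain (65 bins) and the *Plagl1* domain (72 bins), and every one of the 83 bins of the *Grb10* domain was below 0 in both. The *H19*-*Igf2* and *Kcnq1* windows overlap. The *Dlk1*-*Dio3* domain had 77.2% and 72.8% of its 114 bins above 0, the *Peg3* domain 52.2% and 50.7% of 67, and the *Snrpn* domain 11.3% and 9.86% of 213. Over the bins of a domain, Pearson's r between pools was 0.718 in the *Mest* domain, where the index varied little, and 0.873 to 0.980 in the others, a description of neighbouring bins that are not independent.

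**Figure D3:**
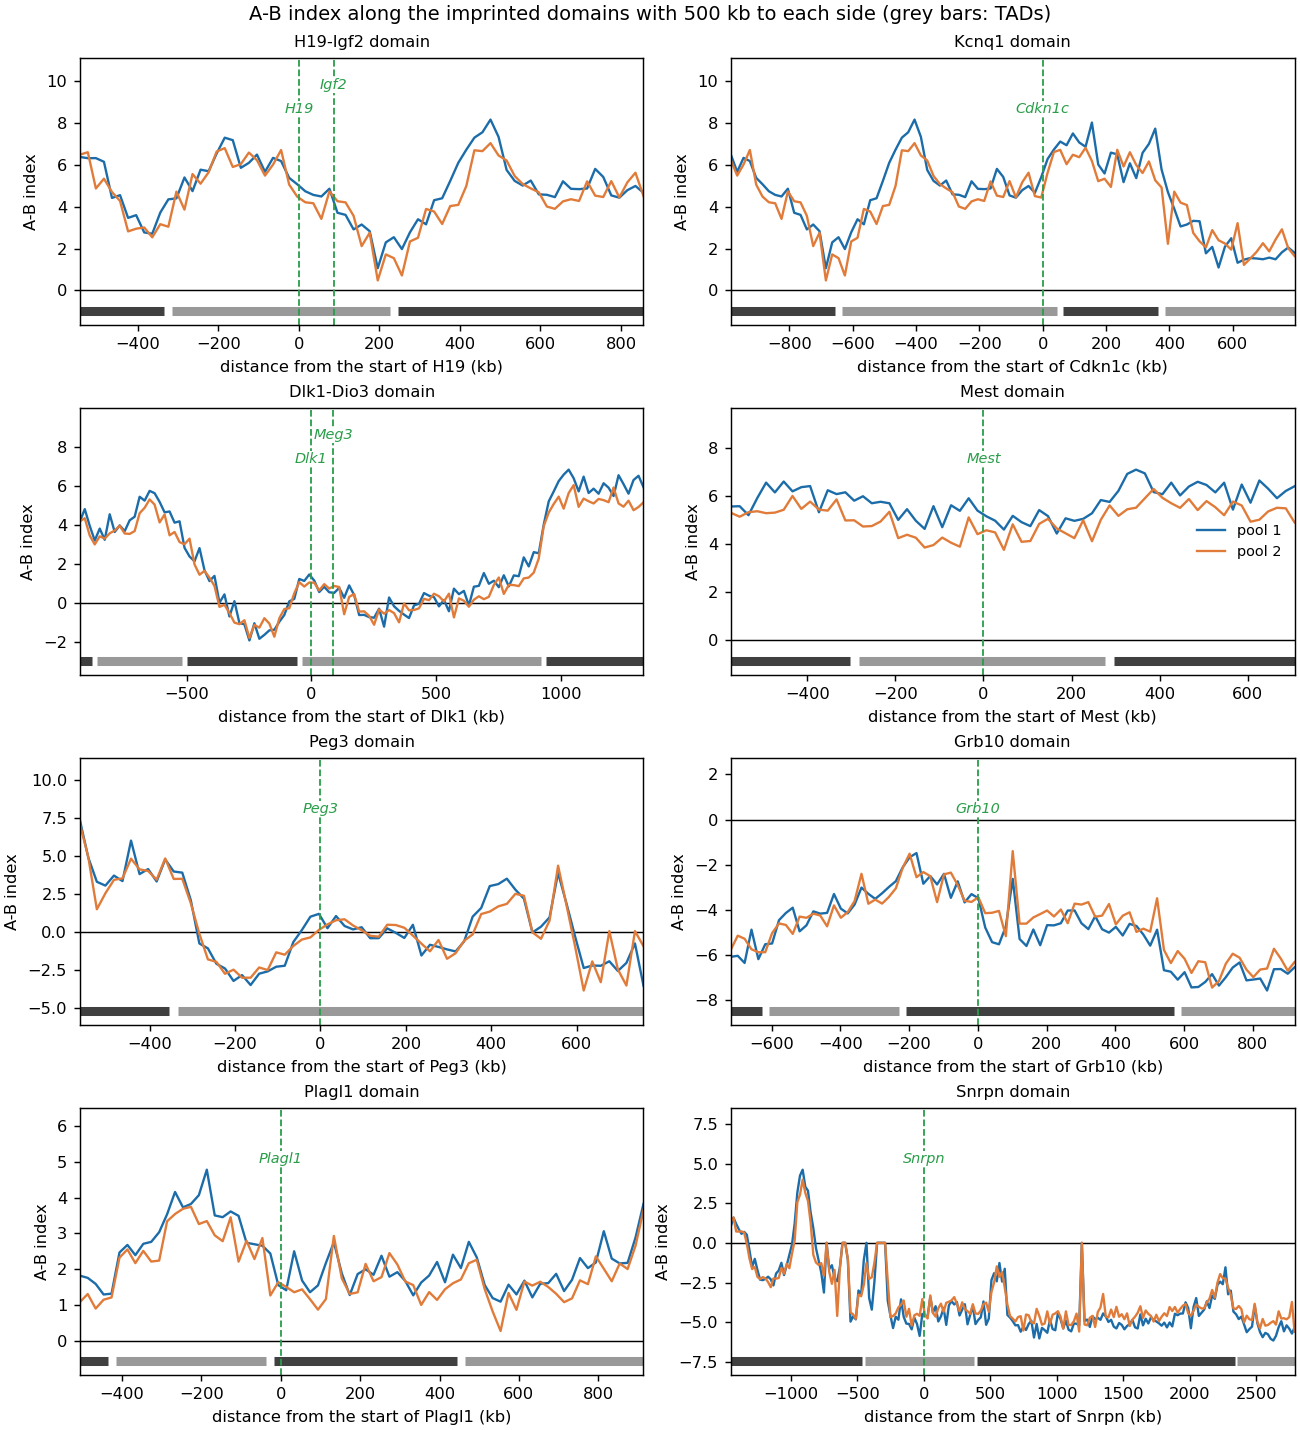
A-B index of 20-kb bins (pool 1 blue, pool 2 orange) against the distance in kb from the start of a member, for the 8 domains with 500 kb to each side; dashed lines mark the starts of members, grey bars the TADs of the merged map, dark and light in turn. The *H19*-*Igf2*, *Kcnq1*, *Mest* and *Plagl1* windows stay above 0, the *Grb10* window stays below 0, and the *Dlk1*-*Dio3*, *Peg3* and *Snrpn* windows cross it.

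In the *H19*-*Igf2* domain the index fell towards the end of the topologically associating domain (TAD), a block of chromatin that contacts itself more than its surroundings. The lowest bin of the window, chr7:142320001-142340000, was at 1.06 and 0.48, 196 kb from the start of *H19* on the side of *Igf2* and *Ins2*, and its centre was 30 kb from the TAD end. The highest bin, 142600001-142620000, was at 8.15 and 7.03 and held the start of *Cd81*, which encodes a tetraspanin. *H19* was above the mean of the 51 bins around it, by 0.26 and 0.15, and the start bin of *Igf2* below its own, with differences of -1.12 in pool 1 and -0.16 in pool 2. The bin beside it, which holds the canonical start of *Igf2*, was above those same local means (4.85 and 4.72, against 4.82 and 4.41), so no direction is read for *Igf2*. *Cdkn1c* ranked 35th, *Mest* 36th and *Plagl1* 37th of the 51 bins within 500 kb of their starts, so these were not local peaks.

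*Dlk1* and *Meg3* stood on a small rise of the index. The bins within 500 kb of *Dlk1* averaged 0.13 and 0.08 in the pools, and the *Dlk1* bin was 1.33 and 0.98 above that, 6th of 51. *Meg3* was 0.61 and 1.01 above its surroundings and 9th of 51. The rise was a run of 10 bins in A in both pools, chr12:109340001-109540000, with means of 0.85 and 0.86, which held both genes whole. Before it lay a run of 10 bins in B (109120001-109320000, means -1.29 and -1.08), with the lowest bin of the domain at -1.92 and -1.79. Beyond it the index sank to B over the downstream noncoding genes. *Rtl1*, a retrotransposon-derived gene, was at 0.41 and 0.47, *Rian* at 0.91 and 0.32, and *Mirg*, a host of miRNAs, at -0.29 and -0.33, the only gene of the domain list with its start in B. *Dio3*, which inactivates thyroid hormone at the far end, was back at 1.38 and 0.87. The TAD held 67 annotated miRNA genes, whose starts were in A in both pools for 12, in B for 45 and of opposite sign for 10 (median -0.31, range -0.93 to 1.12), and 23 snoRNA genes, of which 22 were in B. Many of these small RNA genes share bins, so their values are not separate measurements.

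*Peg3* lay between runs of opposite sign. A run of 12 bins in B (chr7:6440001-6680000, means -2.21 and -1.99) ended 40 kb before a run of 6 bins in A (6720001-6840000, means 0.55 and 0.45) that began with the *Peg3* start bin. The start bin is shared with *Usp29*, a ubiquitin-specific protease transcribed the other way, so both have the same value. *Zim1*, a zinc finger gene on the B side, was at 0.12 in pool 1 and -0.51 in pool 2, and the noncoding *Zim3* and *Zfp264* records were in B at -0.85 and -1.28 in a shared bin.

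The *Grb10* window was the reverse of the *H19*-*Igf2* window, with no bin above -1.39 in either pool. Its highest bin by the mean of both pools, chr11:11780001-11800000, was at -1.67 and -1.51 in the body of *Ddc*, the dopa decarboxylase gene, and at the edge of the TAD. *Ddc* started at -2.49 and -2.50 and *Cobl*, an actin nucleator on the other side, at -5.13 and -4.25. *Grb10* lay between them.

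The *Snrpn* domain was mostly in B, and its highest bins lay at *Ube3a*, an E3 ubiquitin ligase gene. *Ube3a* started at 3.18 and 2.57, and its whole body (chr7:58878492-58961832) lay in a run of 7 bins in A, 58840001-58980000, with means of 3.16 and 2.41. A run of 17 bins in B (58500001-58840000) came before it, and runs of 73 and 80 bins in B (59540001-61000000 and 61020001-62620000, means -4.59 and -4.23, and -4.74 and -4.33) lay on its other side. The first of these holds *Snrpn* whole, and 1 bin at the level of undetermined bases separates them. Necdin (*Ndn*), *Magel2*, *Mkrn3* and *Peg12*, the genes at the far end, were all in B, from -3.13 for *Ndn* to -2.41 for *Mkrn3* as means of both pools. In this domain 8 bins held 0.0143 to 0.0144 in pool 1 and 0.0149 to 0.015 in pool 2, the values of the 2 bins of undetermined bases among them, so their positive sign was not read as a compartment. Without them 13 of 205 bins were in A in both pools. They held the starts of 46 of the 211 snoRNA genes in the window, which are tandem copies. Of the other 165, 152 were in B in both pools, 13 were of opposite sign and 0 were in A. Of these 13, 8 start in 1 bin that held the undetermined level in pool 1 only, so their sign there was not read either.

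TADs had been called on the merged map of both pools, so they have no replicate. The members lay in 8 of the 2979 TADs, 460 to 1320 kb long, while the median TAD was 540 kb. Lengths are compared over TADs, each counted once, and not over the genes that they hold. *H19* and *Igf2* shared the 540-kb TAD chr7:141820001-142360000 with *Igf2os*, *Ins2* and *Mrpl23*, a mitochondrial ribosomal protein gene. *Dlk1* and *Meg3* shared the 960-kb TAD chr12:109380001-110340000, longer than 80.3% of all TADs, with *Rtl1*, *Rian*, *Mirg* and *Dio3*. *Peg3* lay in the longest TAD of the members, 1320 kb (chr7:6400001-7720000), longer than 88.8%, with the mean index at -0.44 and -0.52. *Cdkn1c* was in 142380001-143060000, *Mest* in chr6:30440001-31000000, *Grb10* in chr11:11780001-12560000, *Plagl1* in chr10:12920001-13380000 and *Snrpn* in chr7:59380001-60200000.

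The starts of 2 of 10 members were within 40 kb of a TAD end, *Plagl1* at 16.2 kb and *Dlk1* at 38.7 kb, while 16.5% of all annotated genes were. *Cdkn1c* followed at 45.2 kb, just outside. The other members were 127 to 379 kb from an end, with *Snrpn* the farthest. The 20 kb between the TADs chr7:141820001-142360000 and 142380001-143060000 separate *H19*, *Igf2*, *Igf2os*, *Ins2* and *Mrpl23* from *Th*. All genes of the *Kcnq1* list, *Cdkn1c* included, also lie on the side of *Th*.

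Of 37 neighbours in the domain lists, 26 had their whole body in the TAD of their member, 10 started in another TAD and *Ddc* crossed an edge. The same share for other genes at such distances was not computed, so these counts are a description only. In the *H19*-*Igf2* list only *Th*, the tyrosine hydroxylase gene, was in another TAD, and it started at 4.40 and 3.17. In the *Kcnq1* list *Nap1l4*, a nucleosome assembly protein gene, *Tnfrsf23*, a decoy receptor gene, and *Osbpl5*, a gene of the oxysterol-binding family, were in the next TAD (143080001-143380000) at means of 6.98, 5.76 and 5.67. *Begain* was in the TAD before that of *Dlk1*, at 1.39 and 0.88. In the *Snrpn* list *Ube3a* was in the TAD before and *Ndn*, *Magel2*, *Mkrn3* and *Peg12* in the TAD after, so the cluster was spread over 3 TADs. All neighbours of *Mest*, *Peg3* and *Plagl1* were in the TAD of their member. At their starts 26 of the 37 neighbours were in A in both pools, 10 in B and *Zim1* of opposite sign. Among all annotated genes 64.9% were in A in both pools, and among protein-coding genes 75.6%.

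The surroundings of the members differed in base composition and gene number, and their part in the index was not tested. The bins within 500 kb had a mean GC content of 47.7%, 47.6% and 47.9% for *Igf2*, *H19* and *Cdkn1c*, 45.8% and 45.6% for *Dlk1* and *Meg3*, 44.0% for *Mest*, 43.5% for *Peg3*, 42.5% for *Plagl1*, 42.1% for *Grb10* and 39.7% for *Snrpn*, while the median of all bins was 41.4%. Other protein-coding genes with a start within 500 kb numbered 32 for *H19*, 28 for *Igf2*, 24 for *Peg3*, 20 for *Cdkn1c*, 14 for *Mest*, 10 for *Plagl1*, 6 for *Grb10* and 3 each for *Dlk1*, *Meg3* and *Snrpn*. The members lie on several chromosomes, between which zero can shift, so these values are given as a description only.

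Other imprinted genes spread as widely as the members. Of 51 found, 39 (76.5%) had their start in A in both pools, 10 in B, and *Ppp1r9a* (0.10 and -0.62) and *Zim1* changed sign. Their median index was 1.12. The highest were *Cd81*, *Inpp5f*, a phosphoinositide phosphatase, and *Nap1l4*, at 7.59, 7.14 and 6.98, and the lowest *Calcr*, the calcitonin receptor, *Ndn* and *Peg12*, at -3.36, -3.13 and -3.03. These genes are not independent of the members, because 25 of them lie in the members' domains. Of the 26 outside, 21 were in A and 4 in B.

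The growth axis genes around the members were ligands, receptors, adaptors, binding proteins, inhibitors and regulators such as *Plagl2*, *Hmga2* and *Lin28b*. Of 27, 22 (81.5%) were in A in both pools and 4 in B. *Hmga2*, an architectural protein of growing tissue, was of opposite sign (-0.08 and 0.75). The median of the list was 3.14. The highest were *Notch1*, the receptor on which DLK1 is thought to act, *Plagl2*, a relative of *Plagl1*, and *Igfbp6*, an IGF-binding protein, at 8.19, 6.36 and 5.31. The lowest were *Igfbp1* and *Igfbp3*, which bind IGFs in serum, and *Lin28b*, an RNA-binding protein of early development, at -3.82, -3.56 and -3.00. Receptors for the members' signals were in A, with *Igf1r* at 4.79, *Insr* at 4.98 and *Igf2r*, which is itself imprinted in mice and clears IGF2, at 3.51. Of the adaptors related to *Grb10*, *Grb7* was in A at 4.29 and *Grb14* in B at -1.30. The CDK inhibitors related to *Cdkn1c*, *Cdkn1a* and *Cdkn1b*, were in A at 3.58 and 5.27.

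**Figure D4:**
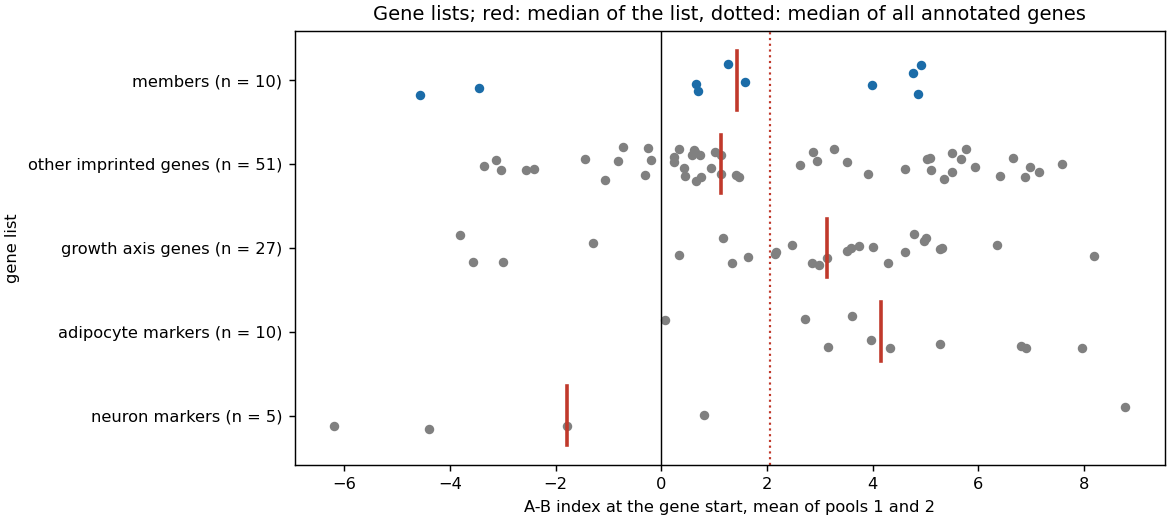
A-B index at the gene start (mean of both pools) for the members, the other imprinted genes, the growth axis genes, and adipocyte and neuron markers; each point is a gene, the red line the median of the list and the dotted line the median of all annotated genes, 2.05. The medians are 1.43 for the members, 1.12 for the other imprinted genes, 3.14 for the growth axis genes, 4.15 for the adipocyte markers and -1.78 for the neuron markers. The other marker lists are not drawn, and their medians run from 0.35 (liver) to 4.30 (muscle).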

How the data were processed

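Hi-C of 2 pools of mouse iWAT was analysed for 10 imprinted genes. The members and gene lists were chosen with earlier results of these data known. The authors aligned reads to GRCm39 with BWA, filtered them in Juicer at a mapping quality minimum, and set coarse A and B regions per chromosome and library from a principal component oriented by gene density. The deposited values are the A-B index of each library, a score with a sign for every 20-kb bin, and TADs called by insulation score on the merged, KR-normalized map. Because A and B regions were set chromosome by chromosome, zero can shift between chromosomes and pools.

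Bins were matched to GRCm39 by chromosome length, and gene records were taken from GENCODE M39. A gene took the bin of its start, or the mean of the bins of its body, and counted as A or B when both pools had the same sign. Symbols with several records took the longest. *Nespas* and *Zrsr1* were not found by symbol and were not analysed here. Positions count from 1. Genes were named by a rule: all members, neighbours in another TAD or compartment, and of the other imprinted and growth axis genes the 3 highest, the 3 lowest and those of opposite sign between pools. Relatives and receptors of members and 2 adipocyte markers were added after their values were seen. Motifs were searched in GRCm39. The pools are separate samples, so an SD covers the spread between pools of mice and between library preparations. It does not give the spread between single animals. Depth per bin was not given in the sources used here. Calculations ran in Python 3.11.15 with numpy 2.4.6 and pandas 2.3.3, figures in matplotlib 3.10.9, and look-ups were tested on simulated data. Contact maps were not analysed here.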

Additional observations from a re-analysis of the deposited data

How the results depend on the processing

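The mean index at the start kept its sign for all 10 members under each of 9 alternatives: smoothing over 3 or 5 bins, centring on the library or the chromosome, quantile normalization, the canonical start, the gene end, and leaving out either pool. The count of members in A was 8 or 7 under all alternatives, and it was 7 with each chromosome centred on its median, at the gene end, and with bins within 0.5 of 0 counted as neither. The body count was 7 or 8. With either pool left out these counts ranged from 8 to 8 at the start and from 7 to 8 over the body. The share of A bins along the domains was 53.93% as the mean of both pools, 48.55% with 250 kb to each side and 55.16% with 1 Mb. It was 42.13% with no flank, below the 47.4% and 45.7% of all bins, where the long *Snrpn* domain weighs most. After centring on the library it was 55.65%. Within 20 kb of a TAD end there was 1 member, against 2 within 40 kb, and 6 promoters held the ZFP57 letters at canonical starts, against 2, an alternative added after seeing the data. The count of neighbours in the TAD of their member was 26 or 27 of 37. Other imprinted genes in A numbered 37 to 41 of 51, and growth axis genes in A 22 or 23 of 27. RefSeq starts were not run. No paired analysis was possible because there is 1 group with no comparison between groups. Sign at values near 0, as for *Peg3*, is a limit, since 2 pools give little hold on the spread and contacts per bin are not known.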
